A study of Mus musculus with 6 samples.

Results

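The cytosolic ribosomal protein genes were compared between Rbpms knockout and wildtype mouse hearts. They were the protein-coding rows of the deposited table whose symbol is Rpl or Rps, a number and an optional a, x, y or l, together with Rpsa, Rplp0, Rplp1 and Rplp2. This gave 80 of the 20893 genes in the table, 31 of the small (40S) and 49 of the large (60S) subunit. The muscle form Rpl3l and the duplicated forms Rpl36al, Rpl39l and Rps27l are among them, while Rps3a1, Fau and Rack1, which also belong to the ribosome, have symbols outside the rule. Rpl10l and Rps27rt are not analysed here.

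Heart mRNA was measured in 3 libraries per group, by a stranded kit read from 1 end over 72 bases. The knockout group carries a germline mutation of Rbpms, named R1KO in the labels, and the wildtype group is described as littermate control. The strain is given as C57BL6/J for both groups. The title places the hearts in the embryo and the design text after birth, so the stage was not settled here. The labels do not say whether the libraries are from different animals. P-values therefore measure the spread between these libraries, which may be technical in part. The libraries of a group were not all from 1 animal, since both sexes were read in each group from the values given below.

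Cytosolic ribosomes translate all mRNAs made in the nucleus, and a ribosome holds a single copy of nearly every ribosomal protein. Their mRNAs are among the most abundant of a growing cell. Most begin with a cytosine in a run of pyrimidines, the 5′ terminal oligopyrimidine tract, through which mTOR and Larp1 adjust the translation of all of them together. Proteins left unassembled are degraded, and free Rpl5 and Rpl11 can bind Mdm2 and so stabilise p53. Heart and skeletal muscle also make Rpl3l, which takes the place of Rpl3 at the peptidyl transferase centre. RBPMS binds RNA at paired CAC motifs and is known for its part in splicing in muscle.

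The tract is shown first because it is what these mRNAs are known for, although fewer than 50% of their annotated starts held one here. Each line gives 10 bases before and 20 bases from the annotated start of 1 mRNA in the RefSeq annotation of GRCm38.p6, with the tract in capitals.
Rpl15: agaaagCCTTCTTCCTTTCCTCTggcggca
Rpl28: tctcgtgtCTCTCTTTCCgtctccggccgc
Rpl35a: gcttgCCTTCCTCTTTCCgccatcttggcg
Rps6: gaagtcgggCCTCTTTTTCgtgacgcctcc
Rps10: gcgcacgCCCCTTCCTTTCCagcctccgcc
Rps27: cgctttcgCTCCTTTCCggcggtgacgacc
Rplp2: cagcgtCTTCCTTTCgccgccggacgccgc
Rpl3l: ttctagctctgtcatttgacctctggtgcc
Rpl36al: ccgtcgctcaggttcagttccgacttccgc
The first 7 lie at chr14:18270967-18270996, chr7:4792955-4792984, chr16:33056472-33056501, chr4:86857348-86857377, chr17:27635225-27635254, chr3:90213629-90213658 and chr7:141447641-141447670. The start of Rpl3l, chr17:24727816-24727845, holds no such tract, nor does its other annotated start or that of Rpl36al at chr12:69184048-69184077. Rpl35a has 3 annotated starts, and those at chr16:33056443-33056472 and chr16:33056504-33056533 hold no tract either. Rpl15, Rps6, Rps10, Rps27 and Rpl36al are on the minus strand. A tract was counted where a C followed by at least 4 pyrimidines began within 5 bases of a start.

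Of the 80 genes, 60 had an entry in the promoter table, with 72 starts. A tract was found at 41.7% of these starts, from 28 genes, against 18.4% of all 32851 starts in the table. Within 50 bases on either side of the start, CTTTCC on the gene's strand occurred at 31.9% of the members' starts and at 4.69% of all starts. CTCTTT, which can overlap it, occurred at 30.6% and 3.99%. CCGGAAG, a core bound by ETS factors, searched on both strands, occurred at 18.1% against 5.21%. AAGATGGC, which holds the core of the YY1 site, also on both strands, occurred at 6.94% against 1.44%. TATAAA on the gene's strand occurred at 5.56% against 3.40%. In the coding sequence, the triplet CAC occurred 1.57 times per 100 bases in the median tested member and 1.61 times in the median coding gene. Single triplets were counted, so paired motifs were not measured, and introns and untranslated parts were not searched.

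The deposited values are reads multiplied by a factor for each library and rounded. Dividing the factors out gave between 4163230 reads, in wildtype replicate 3, and 5805783, in knockout replicate 3. Rbpms itself was at 375, 340 and 507 in the knockout and at 1182, 1176 and 1317 in the wildtype libraries, a log2 fold change of -1.61 (limma, Benjamini-Hochberg adjusted p = 0.0124). With a term for the read total, and without knockout replicate 1 or any wildtype replicate, its adjusted p was 0.0523 to 0.134 and its log2 fold change -1.74 to -1.55. Xist and Y-linked genes showed that knockout replicate 3 and wildtype replicate 1 came from females and the other 4 libraries from males. All 13 cardiomyocyte markers were present, with a summed value of 28513 to 31793 in the knockout and 29386 to 32070 in the wildtype libraries. The erythroid markers summed to 2193 in knockout replicate 3 and to between 746 and 958 in the other 5 libraries, and the epicardial markers to 705 in that library and to between 1285 and 1495 in the others. The endothelial markers summed to 8191 to 8626 in the knockout and 7585 to 7845 in the wildtype libraries. None of the markers in the 7 lists of cell types passed the test, and the part of cell makeup in the results below was not tested. In whole hearts, fewer cells of a type and less RNA per cell cannot be told apart.

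No ribosomal protein gene passed the test between the groups. Of the 80 genes, 78 reached 10 or more in at least 3 libraries and were tested, and 0 had an adjusted p under 0.05 with limma on log2(value + 1). In the same fit 141 of all 14974 tested genes, 0.942%, passed that threshold, 0.508% higher and 0.434% lower in the knockout. The smallest adjusted p among the members was 0.206, for Rpl10a. At an unadjusted p under 0.05 there were 2 members, Rpl10a and Rpl36al, against 16.4% of all tested genes. Rpl36al met the filter only with the knockout libraries, where it was higher. The values of the groups did not overlap for 4 members, Rpl10a, Rpl27 and Rps24, which were higher in every knockout library, and Rpl36, which was lower in every one. That is 5.13% of the members, beside 22% of all tested genes (11% higher and 10.9% lower in the knockout).

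The median log2 fold change, knockout over wildtype, was -0.019, with quartiles of -0.058 and 0.044. Over all tested genes the median was -0.001, with quartiles of -0.138 and 0.130. The fold change was above 0 for 33 members and below 0 for 45. The median was -0.023 for the 31 genes of the 40S subunit and -0.015 for the 47 tested genes of the 60S subunit. The 95% interval of the fold change stayed within 1.5-fold in either direction for 75 of the 78 members, against 63.3% of all tested genes. It stayed within 1.25-fold for 61 of them, against 33.9%. The 3 members whose intervals reached beyond 1.5-fold were Rpl3l, Rps10 and Rpl36al, all of which had low values. Genes with many reads per kilobase had narrow intervals in general. At 200 or more per kilobase of exon the interval lay within 1.5-fold for all 53 members and for 95.7% of 2142 other genes, with quartiles of the log2 fold change of -0.063 and 0.042 and of -0.065 and 0.074. Of those other genes 19, 0.887%, passed the adjusted threshold. Over the exons of all transcripts the values had an apparent upper limit, with no tested gene above 923 per kilobase. On that scale the members had a median of 121 and a maximum of 513. All other values per kilobase given here are over the exons of the basic transcript set. There 10 tested genes were above 1000, up to 3053. Whether such a limit compressed the fold changes of the members was not tested. The narrow intervals are those of the deposited values and do not show that the mRNA levels themselves were alike.

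**Figure D1:**
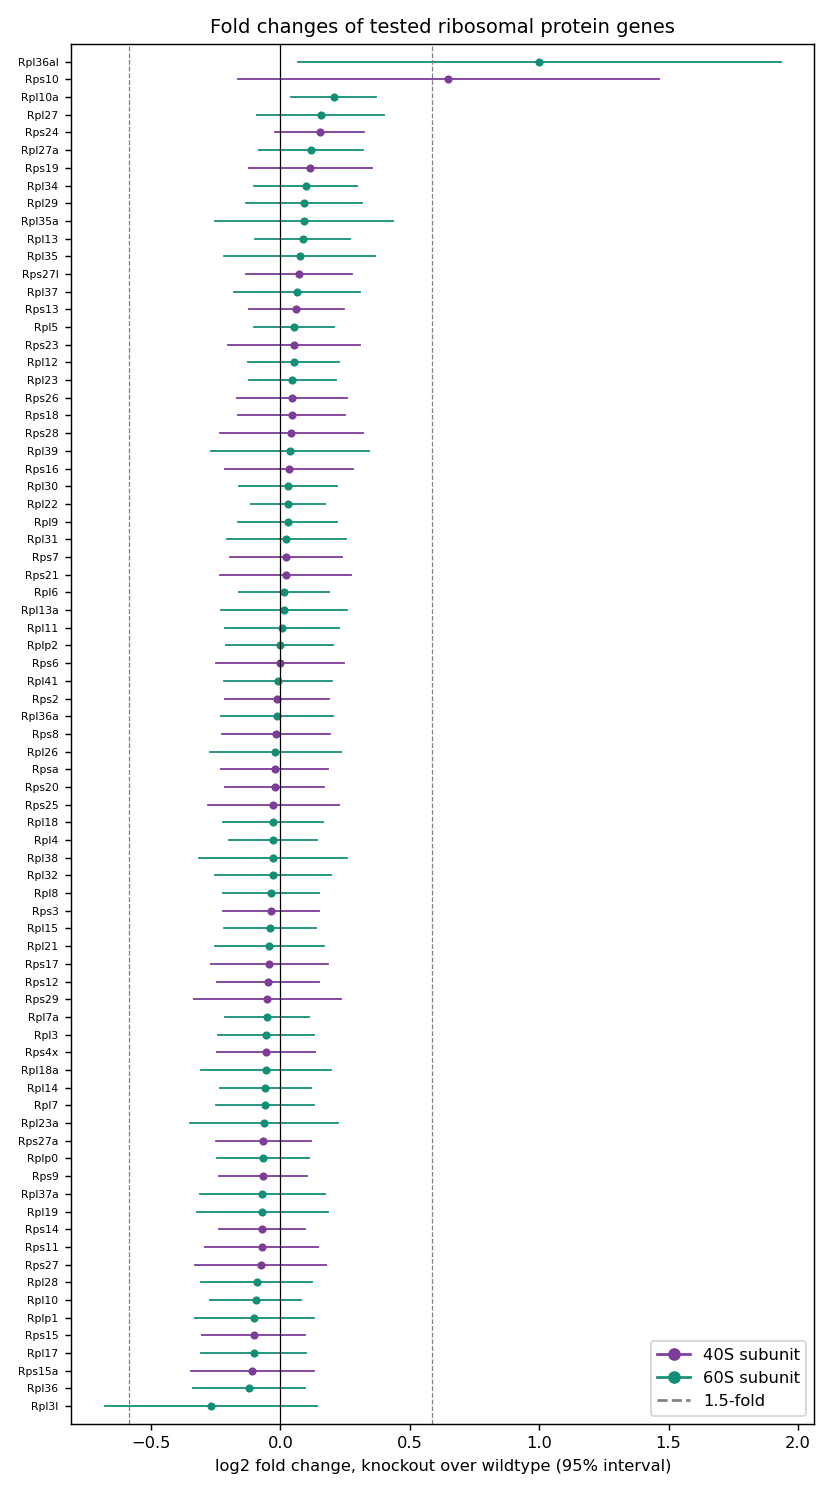
Log2 fold change of 77 of the 78 tested ribosomal protein genes, knockout over wildtype (horizontal axis), as a point with its 95% interval from limma, ordered by size, with 40S genes in purple and 60S genes in green and dashed lines at 1.5-fold. All intervals but those of Rpl10a and Rpl36al include 0, and only those of Rpl3l, Rps10 and Rpl36al pass a dashed line.

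Rpl10a (ENSMUSG00000037805, 60S; chr17:28547445-28550007, plus strand, mm39) lies at the stalk that guides the leaving tRNA and is unevenly present among ribosomes in some cells. Its values were 357, 333 and 366 in the knockout and 311, 300 and 304 in the wildtype libraries. The lowest knockout library was thus above the highest wildtype one, with a log2 fold change of 0.21 (SE 0.073, interval 0.041 to 0.370) that did not pass the test (limma adjusted p = 0.206). Over 21 other ways of processing the fold change was between 0.165 and 0.244, with an adjusted p of 0.15 to 0.492. Rps24, a 40S protein needed for processing of the small subunit's rRNA, was at 471, 459 and 531 against 427, 433 and 452, a log2 fold change of 0.15 (adjusted p = 0.354). Rpl27, a 60S protein, was at 156, 155 and 156 against 133, 134 and 153. Wildtype replicate 3 came close to the knockout libraries for Rpl27, and the log2 fold change of 0.15 did not pass (adjusted p = 0.515). Rpl36, a small 60S protein, was at 164, 156 and 155 against 174, 166 and 177, a log2 fold change of -0.12 (adjusted p = 0.571).

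The remaining genes at either end of the order had overlapping groups. Rpl27a, a 60S protein, was at 269, 292 and 295 in the knockout and 261, 243 and 286 in the wildtype libraries, a log2 fold change of 0.12. Rps15a, a 40S protein, was at 295, 291 and 234 against 275, 308 and 298, with only knockout replicate 3 apart from the rest (log2 fold change -0.11). Rps15, a 40S protein near the decoding centre, was at 309, 315 and 297 against 327, 300 and 365 (log2 fold change -0.10). For Rps15 it was wildtype replicate 3 that stood highest. Rpl17, which lies near the exit of the nascent chain, had a log2 fold change of -0.10. Adjusted p-values of these 4 genes were 0.553, 0.654, 0.607 and 0.612.

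The stalk of the 60S subunit, which recruits the elongation factors, is made of Rplp0, Rplp1 and Rplp2. Rplp0 was at 562, 600 and 540 in the knockout and 590, 549 and 647 in the wildtype libraries. Rplp1 was at 247, 266 and 227 against 260, 241 and 294, and Rplp2 at 251, 254 and 240 against 252, 226 and 270. Wildtype replicate 3 was the highest of the 6 libraries for each of the 3 genes, and knockout replicate 2 the second. Their log2 fold changes were -0.07, -0.10 and -0.002. Rpsa, a 40S protein also named for laminin binding, was at 304, 340 and 312 against 329, 292 and 352, with the same order of the highest libraries.

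Rpl5 and Rpl11, which form the 5S ribonucleoprotein, did not differ beyond the spread of the libraries. Rpl5 was at 407, 410 and 434 in the knockout and 387, 409 and 411 in the wildtype libraries (log2 fold change 0.05, interval -0.102 to 0.205). Rpl11 was at 236, 238 and 235 against 236, 211 and 262, and the group means were 236 in both. Mdm2, the ligase that free 5S ribonucleoprotein binds, was at 526 ± 29.8 against 519 ± 12 (SD, n = 3 each; log2 fold change 0.02, adjusted p = 0.911). Trp53 mRNA was at 367 ± 4.04 against 426 ± 31 (SD, n = 3 each), lower in all 3 knockout libraries, as were 10.9% of all tested genes. It did not pass (log2 fold change -0.21, limma adjusted p = 0.206). Of the 6 tested genes in this list, Cdkn1a, a target of p53 that stops the cell cycle, alone passed, at 677, 571 and 807 against 270, 322 and 293 (log2 fold change 1.20, adjusted p = 0.0124). Its adjusted p was above 0.05 with a term for the read total and without knockout replicate 1 or any wildtype replicate, and lay between 0.000109 and 0.143 over the 21 alternatives.

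The 4 X-linked members are of interest because the groups differ in which replicate is female. Rpl10, which sits near the active centre of the 60S subunit, was at 334, 345 and 320 in the knockout and 354, 334 and 381 in the wildtype libraries. Rps4x, a 40S protein, was at 356, 386 and 359 against 373, 354 and 420. Rpl36a was at 213, 210 and 188 against 208, 194 and 215, and Rpl39, a very short protein of the exit tunnel, at 96, 99 and 89 against 90, 86 and 101. The female libraries, knockout replicate 3 and wildtype replicate 1, were the highest of the 6 for none of the 4 genes. Wildtype replicate 3, a male library, was the highest for all 4, as it was for 50 of the 78 tested members. The order of the libraries in these 4 genes therefore cannot decide on an effect of sex. With a term for sex, 0 ribosomal protein genes passed.

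Mutations of many of these genes in people cause Diamond-Blackfan anaemia, a failure of red cell production. The list of such genes held 22 members, all tested, and 0 passed. Of them 12 were above 0 and 10 below, with a median log2 fold change of 0.013. Rps19, the gene most often affected, was at 201, 201 and 218 in the knockout and 181, 178 and 215 in the wildtype libraries (log2 fold change 0.11, adjusted p = 0.634). It is named here because of that role, after its values were seen.

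Rpl3l (ENSMUSG00000002500; chr17:24946794-24955117, plus strand, mm39) was at 58, 47 and 48 in the knockout and 65, 53 and 67 in the wildtype libraries. The groups overlapped, since knockout replicate 1 was above wildtype replicate 2. The log2 fold change was -0.27 (SE 0.182, interval -0.679 to 0.142), and it did not pass (limma adjusted p = 0.504). It stayed below 0 under all 21 alternatives, between -0.372 and -0.166, with an adjusted p of 0.429 to 0.816. Rpl3 (ENSMUSG00000060036; chr15:79961992-79976069, minus strand, mm39) was at 540, 585 and 502 against 564, 522 and 604 (log2 fold change -0.05, adjusted p = 0.789). Per kilobase of exon, Rpl3l stood at a mean of 35.3 and Rpl3 at 409.

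The ratio of Rpl3l to Rpl3 was 9.55% in the knockout and 11.1% in the wildtype libraries, as geometric means of the values. On the log2 scale it was -3.20, -3.61 and -3.36 in the knockout and -3.10, -3.28 and -3.15 in the wildtype libraries. Knockout replicate 1 fell between the wildtype libraries. The difference of -0.21 had p = 0.2 in a two-sided exact permutation test (n = 3 each, adjusted p = 0.467 over 7 pairs), where the smallest possible p is 0.1. The coding sequences of the pair were 74.4% identical and shared no stretch as long as a read, so that reads of their coding sequences could be told apart. Rpl3 does share 83.5% of its stretches of 72 bases with transcripts of other genes.

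Among the other paralogues, Rpl36al, a second copy of Rpl36a, was at 14, 15 and 12 in the knockout and 4, 5 and 12 in the wildtype libraries. Wildtype replicates 1 and 2 were low and wildtype replicate 3 equalled knockout replicate 3. The log2 fold change was 1.00 (SE 0.414, interval 0.067 to 1.93, limma adjusted p = 0.269), and it rests on few reads. The log2 ratio of Rpl36al to Rpl36a was 1.01 higher in the knockout (two-sided exact permutation p = 0.1, n = 3 each, adjusted p = 0.467). Rpl36al met the filter on low values only with the knockout libraries, where it was higher, so both p-values carry that selection. Rps27l, which differs from Rps27 in a few residues and is known as a target of p53, was at 189, 190 and 200 against 179, 181 and 191, while Rps27 was at 149, 138 and 133 against 152, 136 and 155. Their log2 ratio was 0.15 higher in the knockout (exact permutation p = 0.2, n = 3 each). Rpl39l, which is best known from the testis, was at 5, 4 and 3 against 6, 3 and 5 and was too low to be tested.

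Pairs whose paralogue lies outside the symbol rule were set beside these. Rpl22l1 was at 142, 132 and 171 in the knockout and 133, 128 and 147 in the wildtype libraries, and Rpl22, which can repress it, at 717, 686 and 735 against 698, 669 and 729. Rpl7l1 was at 467, 480 and 446 against 453, 467 and 477, and Rpl7 at 369, 377 and 372 against 388, 353 and 428. Rps4l, annotated as a transcribed processed pseudogene, was at 349, 334 and 332 against 334, 321 and 374, at a log2 ratio to Rps4x of -0.21 to -0.03 in the 6 libraries. The log2 ratios of these pairs differed between the groups by 0.09, 0.06 and 0.04, with two-sided exact permutation p-values of 0.5, 0.6 and 0.6 (n = 3 each). Muscle also has its own form of elongation factor 1A, Eef1a2. It stood at 129% of Eef1a1 in the knockout and at 132% in the wildtype libraries, a log2 difference of -0.03 (exact permutation p = 0.3, n = 3 each). These percentages are not scaled by exon length, 2084 bases for Eef1a2 and 1794 for Eef1a1. Eef1a1 also shares 43.8% of its stretches of 72 bases with transcripts of other genes, and Eef1a2 0%. Which form is the more abundant is therefore not settled here.

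**Figure D2:**
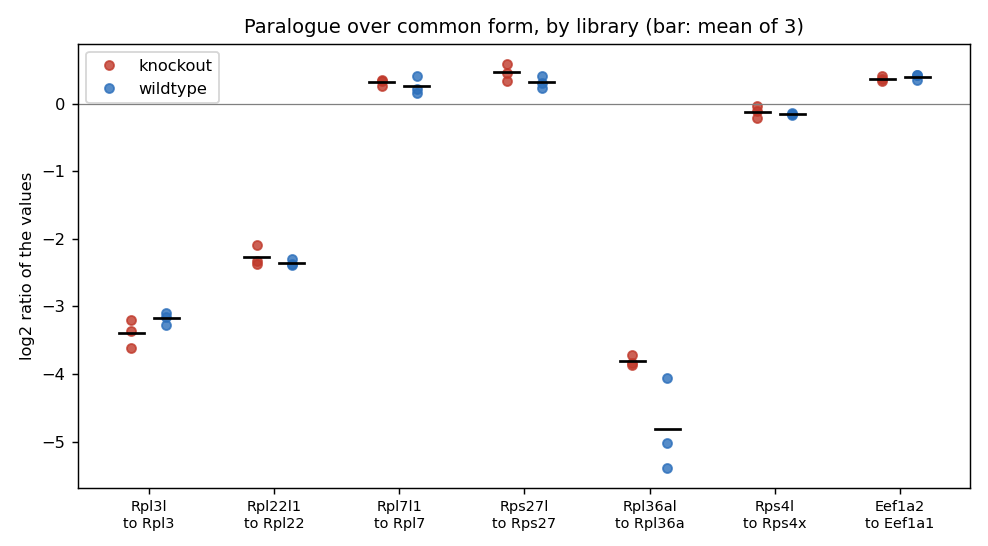
Log2 ratio of the value of each paralogue to that of its common form (vertical axis) in each library, with knockout libraries in red, wildtype libraries in blue and the mean of the 3 libraries as a bar. Rpl3l and Rpl36al lie far below their common forms, and the groups fail to overlap only for Rpl36al, where wildtype replicate 3 comes closest to the knockout libraries.

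The levels of the members differed far more than their fold changes. Per kilobase of exon the median member had a value of 237, with quartiles of 154 and 335, against a median of 67.1 over the tested genes with a known exon length. Of the 80 members, 38 were in the upper 10% of these genes. Rpl4 at 645 per kilobase and Rpl8 at 579 were among the highest. The lowest were Rpl39l at 5.21, Rpl36al at 7.64 and Rpl24 at 9.36, followed by Rps10 at 17.3. Rpl3l came next at 35.3, and all other members were above 50 per kilobase. Rpl4 was at 981, 1036 and 928 in the knockout and 982, 936 and 1089 in the wildtype libraries, and Rpl8 at 597, 628 and 564 against 610, 557 and 670. Both were highest in wildtype replicate 3.

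Rpl24 and Rps10 stood apart from the other common members. Rpl24 (ENSMUSG00000098274; chr16:55786638-55791798, plus strand, mm39), a 60S protein that bridges the subunits, was at 7, 1 and 9 in the knockout and 7 in each wildtype library, too low to be tested. Rps10 (ENSMUSG00000052146; chr17:27849392-27855643, minus strand, mm39), a 40S protein near the mRNA entry, was at 20, 23 and 34 against 10, 15 and 25. The groups overlapped, and the log2 fold change of 0.65 had an interval of -0.166 to 1.46 (limma adjusted p = 0.406). For Rpl24, 81.0% of the stretches of 72 bases in its transcripts also occur in transcripts of other genes, and for Rps10 63.5%. The part of such shared sequence in these low values was not tested.

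Ribosomal protein genes have many processed pseudogene copies, so that a read may match several places. Of the 80 members, 77 shared at least 1 stretch of 72 bases with a transcript of another gene, and 38 shared over 50% of theirs. The median share was 48.8%, against 0.342% for the proteins of the mitochondrial ribosome. It reached 98.5% for Rps27, 92.7% for Rpl5 and 91.9% for Rpl10 and was 0 for Rpl3l and Rpl39l. Across the 80 members, Spearman's rho between this share and the value per kilobase was -0.057, and across the 78 tested members it was 0.079 between the share and the fold change. The sources used here do not state how such reads were counted, so the values of members with a large share are uncertain. The 77 pseudogene rows named after members summed to 601, 554 and 621 in the knockout and 528, 546 and 595 in the wildtype libraries, and 0 of the 3 tested ones passed. Rps4l alone, at 349, 334 and 332 against 334, 321 and 374, made up most of each sum. The median row had a mean value of 2, so the sums do not describe these rows as a set.

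The members moved together from library to library. The median over the 78 tested members of log2(value + 1), relative to each gene's mean, was -0.024, 0.026 and -0.026 in knockout replicates 1, 2 and 3. It was 0.001, -0.101 and 0.119 in wildtype replicates 1, 2 and 3. Wildtype replicate 3 was the highest of the 6 libraries for 50 members, and wildtype replicate 2 was the lowest for 47. Both extremes lay in the wildtype group, and the 3 knockout libraries lay between them. The median pairwise Pearson correlation over the 6 libraries was 0.580 among the members and 0.319 among the mitochondrial ribosomal proteins, given as a description since these pairs share libraries, depth and scaling. All members together took 0.430%, 0.440% and 0.428% of the library total in the knockout and 0.441%, 0.415% and 0.472% in the wildtype libraries. The means were 0.433% ± 0.0066 and 0.443% ± 0.0282 (SD, n = 3 each), a difference smaller than the spread of the wildtype libraries. With the upper limit of values per kilobase given above, these shares and the levels per kilobase may understate the mRNA of high genes, which was not tested.

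**Figure D3:**
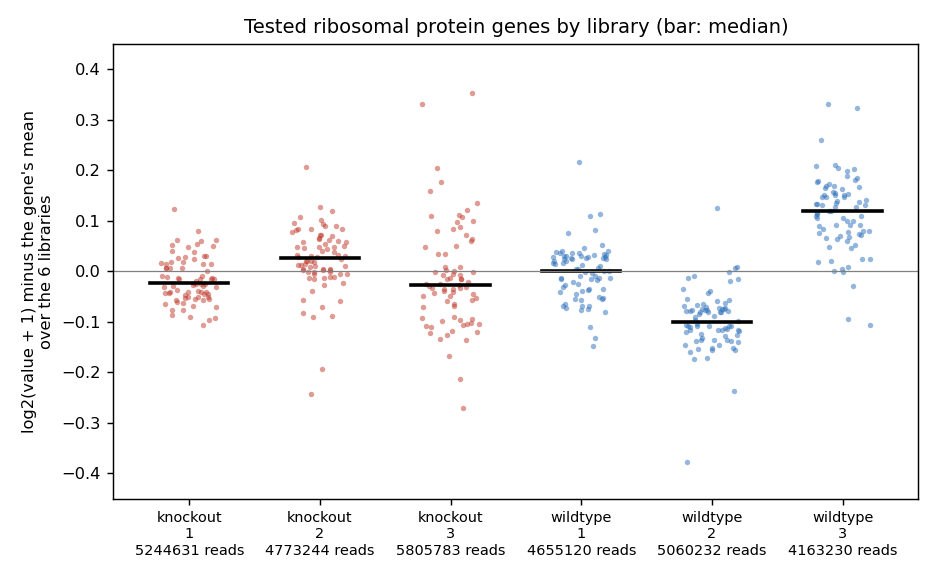
Log2(value + 1) of each of the 78 tested members minus the gene's mean over the 6 libraries (vertical axis), by library, with the median as a black bar and the recovered reads under each library. Wildtype replicate 3 has a median of 0.119 and wildtype replicate 2 one of -0.101, with the knockout libraries between them, and some points of 2 genes fall outside the axis.

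Read totals differed along with these medians, though not in strict order. Wildtype replicate 3, with the fewest reads, had the highest median, and knockout replicate 3, with the most, the second lowest, while wildtype replicate 2, with the lowest median, had 5060232 reads, the third most. Knockout replicate 3 had 1.39 times the recovered reads of wildtype replicate 3 over all genes but 1.26 times over the members. A like order was seen in other genes with many reads per kilobase. The 2142 other tested genes at 200 or more per kilobase had medians of 0.007, 0.034 and -0.034 in the knockout and 0.002, -0.076 and 0.072 in the wildtype libraries. The 53 members at that level had medians of -0.023, 0.021 and -0.032, and 0.010, -0.090 and 0.130, so the range was wider in the members. The part of the read total in the members' values was not tested beyond the alternatives given next.

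**Figure D4:**
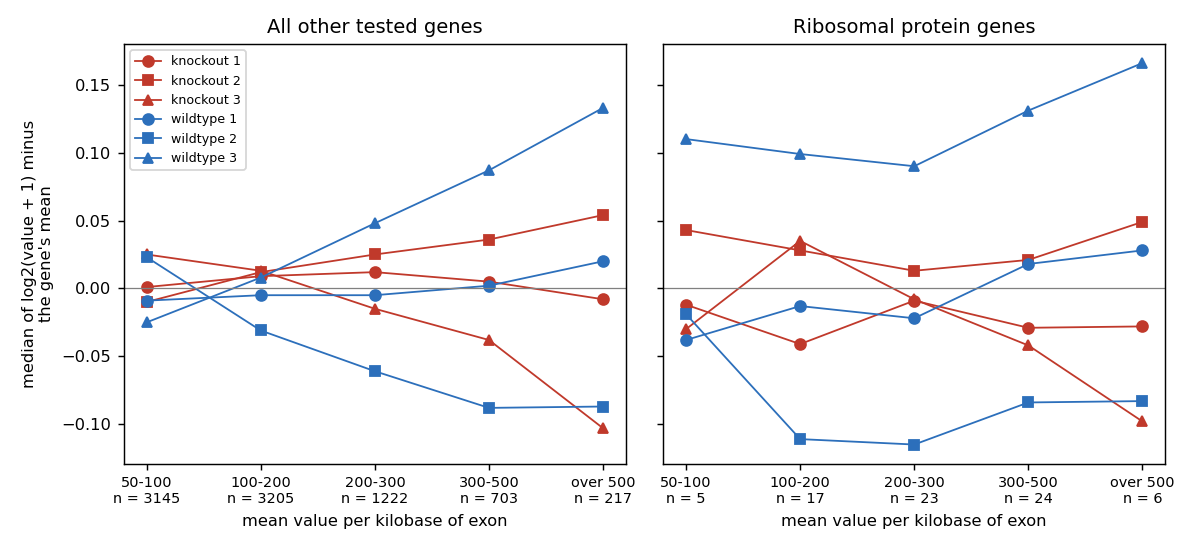
Median of log2(value + 1) minus the gene's mean (vertical axis) in each library, for genes grouped by mean value per kilobase of exon (horizontal axis, with the number of genes), for all other tested genes on the left and the ribosomal protein genes on the right. In both panels wildtype replicate 3 is highest and knockout replicate 3 lowest above 500 per kilobase, while the libraries lie close to 0 for other genes at 50 to 200.

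The sign of the members' median fold change depended on single libraries. Without wildtype replicate 3 the median was 0.047, with 58 of 78 members above 0, and without wildtype replicate 2 it was -0.075, with 22 above 0. With the recovered read total as a term in the fit it was 0.076, with 69 members above 0 and 0 of all genes past the threshold. Mean read totals were 5.27e+06 in the knockout and 4.63e+06 in the wildtype libraries, so this term is not independent of the group. Without both knockout replicate 3 and wildtype replicate 3, the libraries at the ends of the read totals, the median was 0.052 with 63 above 0. The read total term and the last removal were chosen after seeing the data. The difference in share of the library total, -0.0101 percentage points, likewise became 0.0045 without wildtype replicate 3. In all of these, 0 members passed the threshold, and 75 had an interval within 1.5-fold.

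Across the 80 members the value went with length. Spearman's rho was 0.552 between the mean value and the length of the coding sequence and 0.442 between the mean value and the exon length. The median member had a coding sequence of 458 bases, against 1425 bases over all tested coding genes. The fold change and the value per kilobase had a rho of -0.313 over the 78 tested members. These are descriptions over genes, which share libraries and depth and are not independent replicates.

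Of 3 ribosomal proteins outside the symbol rule 0 passed. Rps3a1, a 40S protein, was at 266, 261 and 256 in the knockout and 274, 253 and 296 in the wildtype libraries (log2 fold change -0.07). Rack1, a signalling scaffold on the 40S subunit, was at 904, 951 and 820 against 907, 849 and 991 (-0.04 on the log2 scale), and Fau, the precursor of a 40S protein, at 181, 198 and 178 against 186, 168 and 209 (-0.01).

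The mitochondrial ribosome, which translates the mRNAs of the organelle, served as a list of like size. Of its 81 genes, all tested, 0 passed, 46 were above 0 and 35 below, and the median log2 fold change was 0.010. Mrps27, a protein of its small subunit, had the smallest p, at 551, 513 and 474 in the knockout and 402, 420 and 464 in the wildtype libraries (log2 fold change 0.26, adjusted p = 0.175). Without knockout replicate 3 its adjusted p was 0.0416, in a range of 0.0362 to 0.537 over the 21 alternatives.

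Ribosome biogenesis factors, which make and process rRNA and assemble the subunits, had 75 tested genes. Of these 1 rose (1 of 75, beside 0.508% of all genes) and 0 fell. The fold change was above 0 for 55, or 73.3%, beside 49.8% of all genes, with a median log2 fold change of 0.081 beside -0.001. At an unadjusted p under 0.05 there were 16, all higher in the knockout, beside 8.54% of all genes that were higher at that p. The gene that rose was Rrp12, a factor for export of both subunits, at 333, 344 and 470 against 161, 187 and 182 (log2 fold change 1.09, limma adjusted p = 0.0209). Its groups were far apart in every library, but its adjusted p was above 0.05 with a term for the read total and without knockout replicate 1 or any wildtype replicate, between 0.000449 and 0.143 over the 21 alternatives. Of the 14 tested chaperones and importers of ribosomal proteins 0 passed and 11 were above 0. Ipo5, an importer, had the smallest p, at 1141, 1164 and 1219 against 1009, 1040 and 1098 (log2 fold change 0.16, adjusted p = 0.234).

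Regulators of ribosomal protein mRNAs, such as the binding proteins of the tract, the mTOR pathway and transcription factors, had 23 tested genes, of which 0 passed and 15 were above 0. Larp4, which binds poly(A) tails and stabilises these mRNAs, had the smallest p, at 478, 496 and 552 in the knockout and 422, 454 and 425 in the wildtype libraries (log2 fold change 0.23, adjusted p = 0.185). Larp1, which binds the tract and the cap, was at 1106, 1166 and 1037 against 966, 1023 and 944 (log2 fold change 0.17, adjusted p = 0.242). Larp4 and Larp1 were higher in every knockout library than in any wildtype one. That held for 3 of the 23 regulators, or 13.0%, beside 11% of all tested genes. Rps6kb1, the kinase that phosphorylates Rps6, was at 548, 537 and 532 against 504, 547 and 539. Larp1 and Rps6kb1 are named for their roles, after their values were seen. Of 27 other mRNAs with a tract, 0 passed and 14 were above 0, with a median of 0.008. Among them Eef2 was at 2420, 2579 and 2235 against 2504, 2337 and 2780, Tpt1 at 365, 378 and 348 against 375, 357 and 421 and Pabpc1 at 1111, 1114 and 1170 against 1154, 1111 and 1278, each highest in wildtype replicate 3 like the members.

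Of 40 initiation factors 0 passed, 23 were above 0 and the median was 0.008. Eif5, which activates GTP hydrolysis at the start codon, had the smallest p (log2 fold change 0.18, limma adjusted p = 0.225). Of 19 elongation and release factors 0 passed, 11 were above 0 and the median was 0.041. Dph5, an enzyme for the diphthamide of Eef2, had the smallest p, at 140, 126 and 135 in the knockout and 90, 104 and 107 in the wildtype libraries (log2 fold change 0.41, adjusted p = 0.155).

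**Figure D5:**
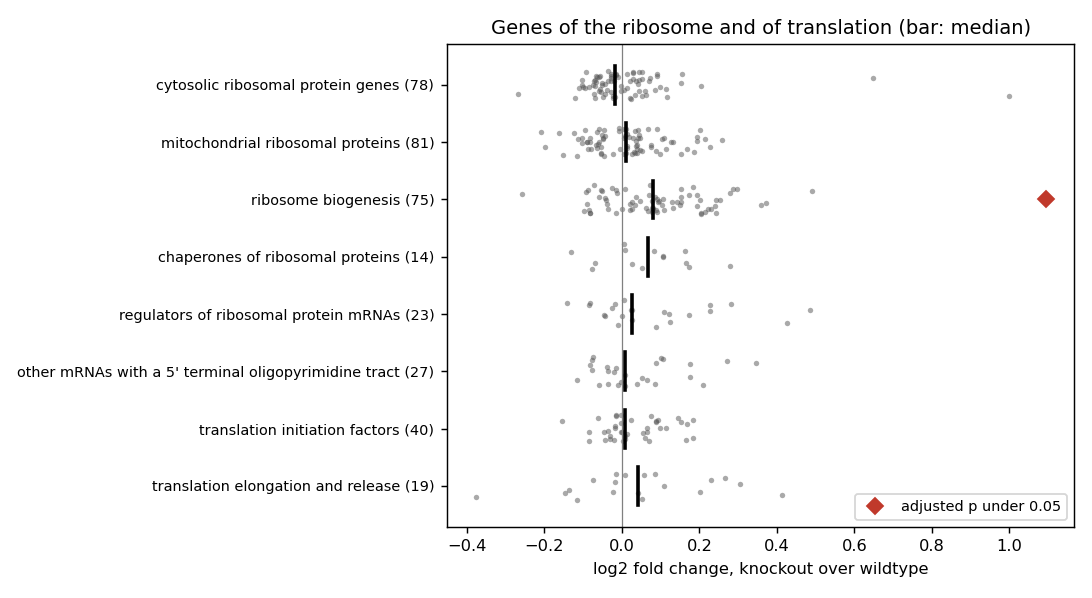
Log2 fold change, knockout over wildtype (horizontal axis), of each tested gene in the ribosomal protein list and in 7 related lists, with the number of genes in brackets, the median as a black bar and genes with an adjusted p under 0.05 as red diamonds. The ribosomal protein genes cluster around a median of -0.019, the biogenesis factors around 0.081, and Rrp12 is the only diamond.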

How the data were processed

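The deposited table holds whole numbers per gene that the authors made, which are treated here as a score. Each is a gene's reads times a factor for its library, rounded, as read from the values themselves. Per the submitters' processing notes, which give no role or order, reads were handled with STAR 2.7.11a, featureCounts 2.0.4, Trimmomatic 0.39, DESeq2 1.36.0 and Picard 3.0.0 on build mm39. How strand, duplicate reads and reads with several matches were treated was not given in the sources used here. Factors were estimated from the spacing of low values (0.8524 to 1.1798). In the libraries with a factor above 1, 99.7% to 99.9% of values came from a whole read number. With a factor below 1 every whole value does so, and this check cannot fail. In those libraries 7.26% to 31.0% of values above 0 fitted more than 1 read number, so their recovered reads are approximate.

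Since the values are no raw counts, limma 3.58.1 (R 4.3.3, statmod 1.5.0) was run on log2(value + 1) with trend and robust moderation, on all 6 libraries with no covariate. The test took genes that reached 10 or more in 3 or more libraries, 14974 of 20893, and p-values were adjusted over all of them by Benjamini-Hochberg with a threshold of 0.05. The log2(value + 1) scale understates changes of low genes. In simulated data with 14961 tested genes, the calls held 70.1% of true 1.5-fold changes, 97% of 2-fold and 100% of 4-fold ones, and 7 of 185 calls were false. The simulation gave all genes the same dispersion, placed changes only above a set mean value and held no differences of sex or cell makeup. These shares therefore do not apply to the real libraries, where the count of calls depended on single libraries. Paralogue ratios were compared by two-sided exact permutation over libraries, adjusted over 7 pairs. Exon and coding lengths and transcript sequences came from GENCODE vM21 (GRCm38), matched by gene identifier for 80 of 80 members, and none of its coordinates were used. Starts came from RefSeq, GRCm38.p6.

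Members, lists and alternatives were chosen with earlier results of these data known. Named were Rbpms, the paralogues and partners, the stalk genes, Rpsa, Rpl5, Rpl11, X-linked members, members past the threshold, the 5 highest and 5 lowest fold changes, the 3 highest and 3 lowest per kilobase, and up to 4 genes past the threshold, or the one with the smallest p, of each other list. Alternatives changed scaling, filter, pseudocount, moderation, covariates and libraries. Some genes that these rules name are not reported here. Library values are too few for a test of correlation, so none was made.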

Additional observations from a re-analysis of the deposited data

How the results depend on the processing

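The count of ribosomal protein genes past the threshold was 0 under all 21 alternatives, and the smallest adjusted p (limma) among them lay between 0.12, without the libraries at the ends of the read totals, and 0.492, without wildtype replicate 1. The members with an interval within 1.5-fold numbered 75 in each alternative too, mostly of 78 tested. With no filter they were 75 of 80. With a value of at least 50 they were 75 of 76, as Rpl36al and Rps10 were not tested there. For 29 named members, 607 values were computed under alternatives, of which 554 kept their direction, 53 changed sign while not past the threshold, and 0 crossed the threshold. For 24 other named genes, 37 of 504 values changed sign while not past the threshold, 15 lost the call (Rbpms, Cdkn1a and Rrp12) and 2 gained it (Mrps27). Where the call was lost, the log2 fold changes were -1.74 to -1.55 for Rbpms, 1.00 to 1.27 for Cdkn1a and 0.94 to 1.18 for Rrp12, beside -1.61, 1.20 and 1.09. The adjusted p of Rbpms was 0.0892 with a term for the read total, 0.0523 without knockout replicate 1 and 0.0868, 0.0967 and 0.134 without wildtype replicates 1, 2 and 3.

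The count of all genes past the threshold, 141, depended on the setting, and the cause was not tested. It was 218 with no filter, 83 with a value of at least 50, 90 without robust moderation, 73 with voom on recovered reads, 256 in male libraries only, 223 with sex as a term, 434 without the libraries at the ends of the read totals and 0 with a term for the read total. Leaving out 1 replicate at a time gave 0 (without wildtype replicate 2 or 3) to 727 (without knockout replicate 3). The split of higher to lower calls was 76 to 65, but 27 to 46 with voom and 42 to 58 with equal library totals. Whether replicate numbers pair the samples was not settled. Same-numbered libraries had correlations of -0.169, -0.111 and -0.13 in their deviations from the group means. With 3 libraries per group these cannot decide it. With the replicate block 23 of all genes and 0 members passed. The male libraries, the read total term and the removal of both end libraries were chosen after seeing the data. A value of 10 rests on about 10 reads, so Rpl24, Rpl39l, Rpl36al and Rps10 are limited by depth.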
